A study of Mus musculus with 5 samples.

Results

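The comparison described here sets the liver of mice kept for 10 weeks on an atherogenic diet against the liver of mice kept for 10 weeks on standard chow, across all annotated genes. Its members are the 2 arrays that the sample titles assign to these groups, of 5 arrays in the series, and the 9250 genes measured on at least 1 of the 2, of 12393 genes with an unambiguous probe set. All mice were labelled C57B/L, a common inbred laboratory strain, were 8 weeks old and had 2 weeks of maintenance before feeding; the sources used here do not give the sex of the mice, the livers per pool or the make-up of the feed. An atherogenic diet is a feed meant to raise cholesterol in the blood and to bring on disease of the arteries. The remaining 3 arrays held livers from 1 week of chow, from 1 week of the diet, and from 10 weeks of the diet with atorvastatin, a statin, for 3 weeks. They serve below only as background. The 1-week diet sample carries a chow label in its source name and a diet label in its title, description and protocols, and was taken by its title.

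Livers of a group were pooled before RNA was isolated, and each pool was hybridised to 1 oligonucleotide array. The values are MAS5 signals, a linear intensity per probe set. There was 1 array per side, so no test and no error across animals could be given, and every value describes these pools only. A gene was counted as measured where its signal passed a floor of 138.9 on at least 1 of the 2 arrays, and as past 2-fold where the signals, set to the floor where lower, differed at least 2-fold. With 1 signal below the floor, only a lower limit of the fold can be given, from the brighter signal and the floor, and it is written as at least that fold. In these pooled livers, fewer cells of a type and less RNA per cell cannot be told apart. All 9 hepatocyte-defining genes with a probe set were measured, and the albumin gene Alb read 69204 on chow against 49348 on the diet (1.40-fold lower). The summed signal of the 9 was 343580 on chow and 274060 on the diet at 10 weeks, 249760 with atorvastatin, 216990 on chow at 1 week and 193560 on the diet at 1 week, so the 10-week chow array was the highest; its part in the genes found lower was not tested.

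The liver makes fatty acids from sugar when feed is plentiful and burns fatty acids when it is not. Synthesis runs through acetyl-CoA, the carboxylases and fatty acid synthase, and is driven by the transcription factors SREBP-1c and ChREBP; oxidation and the response to fasting are driven by the receptor PPAR alpha. Cholesterol is made through mevalonate and squalene under the control of SREBP-2, and leaves the liver as bile acids, whose synthesis is held back when bile acids return from the gut. Many of these genes also follow the daily clock, in which the activator BMAL1, encoded by Arntl, switches on repressors and output factors such as the REV-ERBs and DBP.

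In this comparison 336 of 9250 measured genes (3.63%) were at least 2-fold higher on the diet and 284 (3.07%) were lower, 6.7% in all. The 2 chow arrays, which share their feed but differ in time on it, differed past 2-fold for 403 of 9101 genes, or 4.43%, with 2.46% higher and 1.97% lower at 10 weeks. The median log2 ratio of all measured genes was 0.053. Most differences were small: the 3-fold mark was reached by 48 higher and 42 lower genes, and 4 reached 8-fold higher, namely Dbp, Fabp5, Msmo1 and Serpina12. The gene with the largest ratio downward was AY036118, a sequence identifier outside the rule for named genes and chosen after its value was seen, at 9098 on chow against 1024 on the diet (8.89-fold lower).

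How far a ratio rests on the 10-week chow array was read from the 1-week chow array, against which 3.65% of genes were past 2-fold higher on the 10-week diet and 2.74% lower, 6.39% in all. Of the higher genes 112 were also at least 2-fold above the 1-week chow array, and of the lower genes 95 were also below it. These are 1.26% and 1.07% of the 8920 genes measured against each. They are described below as past 2-fold against both chow arrays; both ratios share the diet array. The 10-week diet array alone lay at least 2-fold above all other 4 arrays for 35 genes and below them for 35. For 14 of the higher and 29 of the lower genes it was the 10-week chow array that stood at least 2-fold apart from all other 4.

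**Figure D1:**
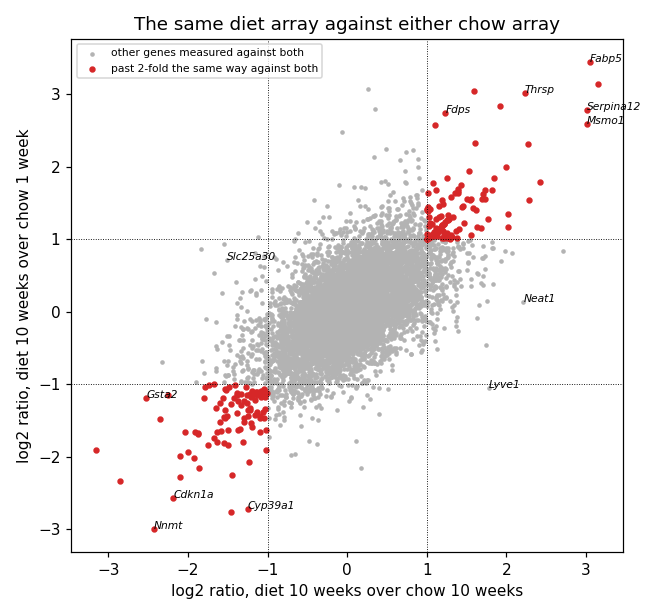
Each point is 1 gene, with the log2 ratio of the 10-week diet array over the 10-week chow array on the horizontal axis and over the 1-week chow array on the vertical axis; dotted lines mark 2-fold. The 112 genes at the upper right and 95 at the lower left pass against both, while Neat1 and Slc25a30 pass against the 10-week chow array alone.

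The 10-week chow array was the highest on some control measures. Relative to the 1-week chow array its spike-in control signals stood at 5.98 times, beside 1.60 times on the 10-week diet array and 1.09 to 1.98 times on the others, and its beta-actin 3' to 5' ratio was 1.73 against 1.17 on the 10-week diet array and 1.20 to 1.61 on the others. The 18S ribosomal RNA controls stood apart on another array, with a geometric mean signal of 13944 on the diet with atorvastatin. They were at 737 on chow and 1002 on the diet at 10 weeks, and 2185 on chow and 437 on the diet at 1 week. The part of all these control differences in the ratios was not tested.

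Genes of fatty acid synthesis stood higher on the diet. Past 2-fold were 4 of 8 measured synthesis genes, all higher, with a median log2 ratio of 1.00. Of 10 regulators of the pathway 5 were higher and 0 lower, with a median of 0.64. In either list 50% of genes were past 2-fold, beside 6.7% of all genes. With the 1-week chow array as reference these medians were 1.07 and 0.67. Between the 2 chow arrays they were 0.44 and 0.16.

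Fasn, fatty acid synthase itself, read 1244 on chow and 3783 on the diet at 10 weeks, 1122 on the diet with atorvastatin, 751 on chow at 1 week and 679 on the diet at 1 week. Acly, which makes cytosolic acetyl-CoA from citrate, read 1570 on chow and 4222 on the diet at 10 weeks, 1310 on the diet with atorvastatin, 1252 on chow at 1 week and 1121 on the diet at 1 week. For both genes the 10-week diet array was above every other array, and the 10-week chow array was second. Other probe sets of Acly gave log2 ratios of 0.63 to 1.88 beside 1.43. Me1, the malic enzyme that supplies NADPH for synthesis, was at 3281 on chow against 7125 on the diet (2.17-fold higher), with 1555 to 3194 on the other 3 arrays, and its second probe set gave 1.11 beside 1.12.

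Acacb, the carboxylase isoform at the mitochondrial surface, was at 203 on chow against 851 on the diet (4.20-fold higher), but the 1-week chow array read 484, so the log2 ratio against it was 0.81. Acaca, the cytosolic carboxylase, gave a log2 ratio of 0.35. Acss2, which activates acetate, was at 2552 on chow against 4728 on the diet (1.85-fold higher), short of 2-fold, while its log2 ratio against the 1-week chow array was 2.00.

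All 5 regulators past 2-fold were high against both chow arrays. Thrsp, the Spot 14 protein that tracks lipogenic activity, read 2539.6 on chow and 11944 on the diet at 10 weeks, 3924 on the diet with atorvastatin, 1475 on chow at 1 week and 1274 on the diet at 1 week. The 10-week diet array was the highest of the 5 by more than the spread of the other 4, and a second probe set gave a log2 ratio of 2.50. Mid1ip1, a partner of Thrsp that activates acetyl-CoA carboxylase, was at 509 on chow against 1467 on the diet (2.88-fold higher), with 382 to 558 on the other 3 arrays. Pnpla3, a lipid droplet hydrolase induced by SREBP-1c, was at 158 on chow against 509 on the diet (3.23-fold higher), with below the floor to 174 on the other 3 arrays.

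The transcription factor genes themselves were among them. Srebf1, which encodes SREBP-1, read 1737 on chow and 3729 on the diet at 10 weeks, 1924 on the diet with atorvastatin, 625 on chow at 1 week and 764 on the diet at 1 week; both 1-week arrays were below the 3 arrays of 10 weeks, so that the chow arrays themselves differed by a log2 ratio of 1.47. Mlxipl, which encodes ChREBP, was at 1281 on chow against 3047 on the diet (2.38-fold higher), with 1431 to 1860.4 on the other 3 arrays. Pklr, liver pyruvate kinase and a classic ChREBP target, was at 914 on chow against 2203 on the diet (2.41-fold higher), with 499.6 to 1011 on the other 3 arrays, and its other probe sets gave log2 ratios of 1.64 to 3.34 beside 1.27. Gckr, the glucokinase regulatory protein, was at 1701 on chow against 3484 on the diet (2.05-fold higher). In the glycolysis and fructose list 2 of 14 genes were higher, these 2, and 1 lower, Hk2, a hexokinase of other tissues, at 293 on chow against below the floor on the diet (at least 2.11-fold lower). Past 2-fold were 21.4% of the list, beside 6.7% of all genes.

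Elongation and desaturation were less uniform. Elovl6, which lengthens palmitate, was at 558 on chow against 1902 on the diet (3.41-fold higher), with 568 to 783 on the other 3 arrays, with its other probe set at a log2 ratio of 2.17, and was the 1 gene past 2-fold of 14 measured. Scd1, the main hepatic desaturase, was at 32869 on chow and 35632 on the diet on its brighter probe set, a log2 ratio of 0.12, while a dimmer probe set gave 2.38. Fads1 and Fads2, desaturases of polyunsaturated fatty acids, gave 0.44 and 0.65.

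**Figure D2:**
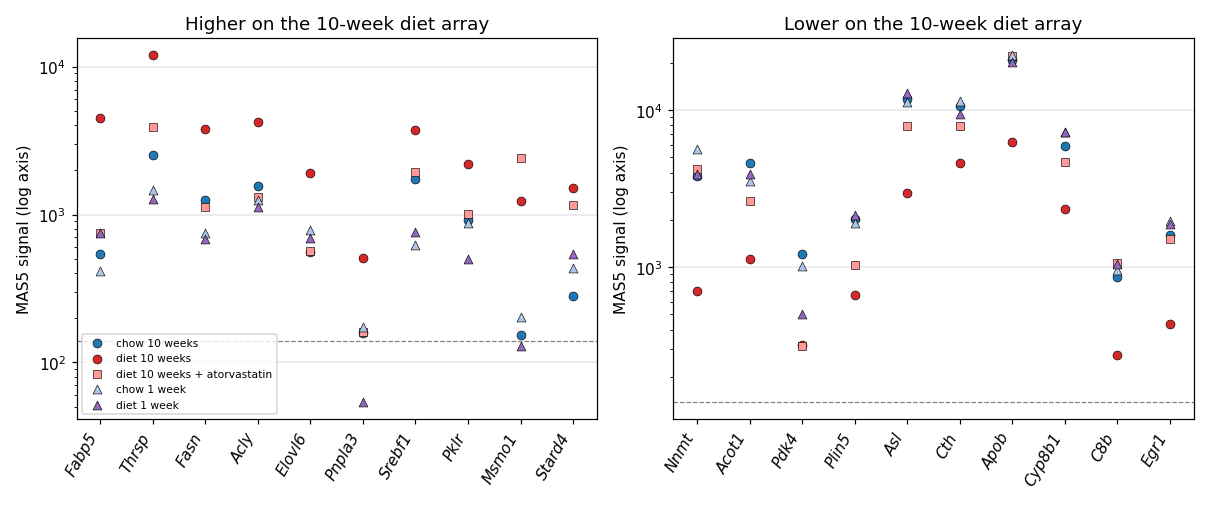
MAS5 signals on a log axis for 10 genes higher and 10 genes lower on the 10-week diet array, 1 point per array, with the floor of 138.9 as a dashed line. The 10-week diet array is the highest point for Fabp5, Thrsp, Fasn, Acly and Elovl6 and the lowest for Nnmt, Acot1, Asl, Apob and C8b, while the atorvastatin array is above it for Msmo1.

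Fat handling held the largest ratio among genes higher on the diet with both signals above the floor. Fabp5, a fatty acid binding protein of skin, fat and macrophages that is scarce in normal liver, read 542 on chow and 4497 on the diet at 10 weeks, 745 on the diet with atorvastatin, 413 on chow at 1 week and 755 on the diet at 1 week. The diet at 10 weeks was 8.30-fold higher than chow, the other 4 arrays lay within 413 to 755, and a second probe set gave a log2 ratio of 3.26 beside 3.05. Fabp2, the intestinal binding protein, was at 2562 on chow against 6454 on the diet (2.52-fold higher), but 3659 on chow at 1 week. Fabp1, the liver form, was at 51830 on chow and 46951 on the diet. Cd36, a fatty acid uptake receptor, gave a log2 ratio of 0.88. Of 12 measured binding and uptake genes 2 were past 2-fold, both higher, 16.7% beside 6.7% of all genes.

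Lipid droplet genes differed both ways, 2 higher and 2 lower of 14, and all 4 passed against both chow arrays. The 4 were 28.6% of the list, beside 6.7% of all genes. Plin3, a droplet coat protein, was at 452 on chow against 1153 on the diet (2.55-fold higher), with 372 to 829 on the other 3 arrays, and Fitm1, which helps droplets form, at 379 on chow against 1146 on the diet (3.02-fold higher), with below the floor to 323 on the other 3 arrays. Plin5, the coat protein of oxidative tissues that docks droplets to mitochondria, was at 2019 on chow against 668 on the diet (3.02-fold lower), with 1025 to 2139 on the other 3 arrays. G0s2, an inhibitor of the lipase ATGL, was at 5925 on chow against 2679 on the diet (2.21-fold lower), with 4123 to 5787 on the other 3 arrays. Plin2, the main droplet coat of liver, gave a log2 ratio of -0.40. Mogat1, a monoacylglycerol acyltransferase, was the 1 of 10 genes of triglyceride assembly past 2-fold, at 194 on chow against 509.6 on the diet (2.63-fold higher), with 158 to 265 on the other 3 arrays.

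Cholesterol genes were mixed against chow at 10 weeks. In the mevalonate arm 1 of 6 measured genes was at least 2-fold higher, with a median log2 ratio of 0.54. From squalene to cholesterol 2 of 11 were higher and 1 lower, with a median of 0.084. Past 2-fold were 16.7% and 27.3%, beside 6.7% of all genes. Against chow at 1 week each list had 3 genes higher and 0 lower, with medians of 0.86 and 0.70. Between the 2 chow arrays the medians were 0.24 and 0.58. Msmo1, the C4-methylsterol oxidase, read 153 on chow and 1230.4 on the diet at 10 weeks, 2429 on the diet with atorvastatin, 204 on chow at 1 week and below the floor on the diet at 1 week. Its 10-week diet signal was thus high beside chow and beside the 1-week diet, and lower than that with atorvastatin. Fdft1, squalene synthase, was at 458 on chow against 1296 on the diet (2.83-fold higher), with 441 to 1289 on the other 3 arrays; its other probe sets gave log2 ratios of 0.68 to 1.05. Fdps, farnesyl diphosphate synthase, was at 1198 on chow against 2814 on the diet (2.35-fold higher), with 240.2 to 1772 on the other 3 arrays.

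Cyp51, lanosterol demethylase, was the gene past 2-fold lower, at 500 on chow against 217 on the diet (2.31-fold lower), but its other probe set gave a log2 ratio of 0.63, so its direction depends on the probe set. Hmgcs1, which makes HMG-CoA, was at 3579 on chow and 3654 on the diet, and Idi1, Sqle and Lss gave log2 ratios of 0.43, 0.78 and 0.79. Stard4, a sterol carrier that responds to SREBP-2, read 283 on chow and 1519 on the diet at 10 weeks, 1169 on the diet with atorvastatin, 438 on chow at 1 week and 537 on the diet at 1 week, with a second probe set at a log2 ratio of 2.55. Both arrays of 10 weeks on the diet were above the other 3. Srebf2, which encodes SREBP-2, was at 271 on chow and 518 on the diet, yet at 749.8 on chow at 1 week.

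Bases before the start sites of 4 lipid genes and 1 clock gene, all higher on the diet, are shown because they carry letter runs read by factors of these pathways. They are RefSeq sequences of assembly GRCm38.p6, written 5′ to 3′ on the gene's strand up to the base before an annotated start, with both motifs searched for here in capitals. CCAAT, or ATTGG where it lies on the other strand, is the box of the factor NF-Y, a partner of SREBP at lipogenic promoters. CACGTG is the E-box read by clock and ChREBP-type factors. Thrsp lies at chr7:97417551-97417670 on the minus strand, Fasn at chr11:120824548-120824667 on the minus strand, Msmo1 at chr8:64733579-64733758 on the minus strand, Mlxipl at chr5:135089710-135089889 on the plus strand and Tef at chr15:81802493-81802672 on the plus strand. The Fasn stretch lies before the 1 start given for this gene among the sequences used, and inside the annotated span of the gene.
Thrsp: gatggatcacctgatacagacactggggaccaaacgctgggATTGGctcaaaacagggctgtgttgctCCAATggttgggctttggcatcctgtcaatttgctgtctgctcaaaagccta
Fasn: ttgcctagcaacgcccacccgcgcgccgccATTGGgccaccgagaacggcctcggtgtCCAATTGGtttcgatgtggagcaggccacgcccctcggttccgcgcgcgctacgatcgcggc
Msmo1: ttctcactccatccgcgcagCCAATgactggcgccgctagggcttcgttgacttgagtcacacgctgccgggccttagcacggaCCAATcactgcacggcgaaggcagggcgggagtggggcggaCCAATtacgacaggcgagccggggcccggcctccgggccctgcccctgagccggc
Mlxipl: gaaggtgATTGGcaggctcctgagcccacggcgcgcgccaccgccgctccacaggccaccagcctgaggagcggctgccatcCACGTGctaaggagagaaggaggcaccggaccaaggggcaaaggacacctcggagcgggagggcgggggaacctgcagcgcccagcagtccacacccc
Tef: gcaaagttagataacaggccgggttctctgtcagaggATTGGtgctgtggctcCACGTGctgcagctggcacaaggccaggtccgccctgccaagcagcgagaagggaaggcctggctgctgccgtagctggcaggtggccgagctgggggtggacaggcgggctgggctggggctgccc

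Of the 13 genes of the synthesis, regulator and cholesterol lists past 2-fold, 11 had a window in the sequence table, and 9 of these held CCAAT on either strand within 250 bases before a start. The box is common: 39.7% of the 7490 measured genes with a window held it, as did 33.9% of all 32851 windows. CACGTG was in 1 of the 11, Mlxipl, and in 2 of the 6 clock genes past 2-fold, Tef and Per1, against 9.85% of measured genes. The D-box TTATGTAA, searched on both strands, was in none of these genes and in 0.627% of measured genes.

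Several clock output genes were higher on the diet, and Arntl and Per1 of the core loop were lower. Of 9 measured output factors 4 passed 2-fold upward and 0 downward, at a median log2 ratio of 0.90, all 4 also against the 1-week chow array. In the core loop 0 of 9 were higher and 2 lower, with a median of -0.45. Past 2-fold were 44.4% of the output factors and 22.2% of the core loop, beside 6.7% of all genes. The sources used here do not give the hour at which livers were taken, so time of day and diet cannot be told apart.

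Dbp, a D-box binding activator of daily genes, was below the floor on chow and 1231 on the diet at 10 weeks, 716 on the diet with atorvastatin, below the floor on chow at 1 week and 414 on the diet at 1 week. It was at least 8.86-fold higher on the diet, its second probe set gave a log2 ratio of 2.30, and all 3 diet arrays were above both chow arrays. Nr1d1, which encodes the repressor REV-ERB alpha, read 190.2 on chow and 930.3 on the diet at 10 weeks, 772 on the diet with atorvastatin, 321 on chow at 1 week and 1039 on the diet at 1 week, and Nr1d2, its REV-ERB beta partner, 686 on chow and 1581 on the diet at 10 weeks, 1125 on the diet with atorvastatin, 728 on chow at 1 week and 1616 on the diet at 1 week. Tef, a relative of Dbp, read 1062 on chow and 2259 on the diet at 10 weeks, 2230.2 on the diet with atorvastatin, 1089 on chow at 1 week and 2153 on the diet at 1 week. In each of these 4 genes all 3 diet arrays lay above both chow arrays, as they did for 722 of 9851 genes above the floor on any of the 5 arrays (7.33%). Arntl, which encodes BMAL1, read 637 on chow and 168 on the diet at 10 weeks, 254 on the diet with atorvastatin, 683 on chow at 1 week and 279.9 on the diet at 1 week, with both chow arrays above the 3 diet arrays, as for 6.8% of genes.

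Per1, a repressor of the loop that also answers acute signals, was at 435 on chow against below the floor on the diet (at least 3.13-fold lower), but 238 on chow at 1 week. Clock, the partner of BMAL1, gave a log2 ratio of -0.65, Per3 0.74 and Cry2 0.59. Bhlhe40, a repressor of the same loop, gave 0.90 against chow at 10 weeks and 1.85 against chow at 1 week. The 1-week diet and the 1-week chow array, which share no array with the main comparison, gave log2 ratios of 1.58 for Dbp as a bound, 1.70 for Nr1d1, 1.15 for Nr1d2, 0.98 for Tef and -1.29 for Arntl.

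**Figure D3:**
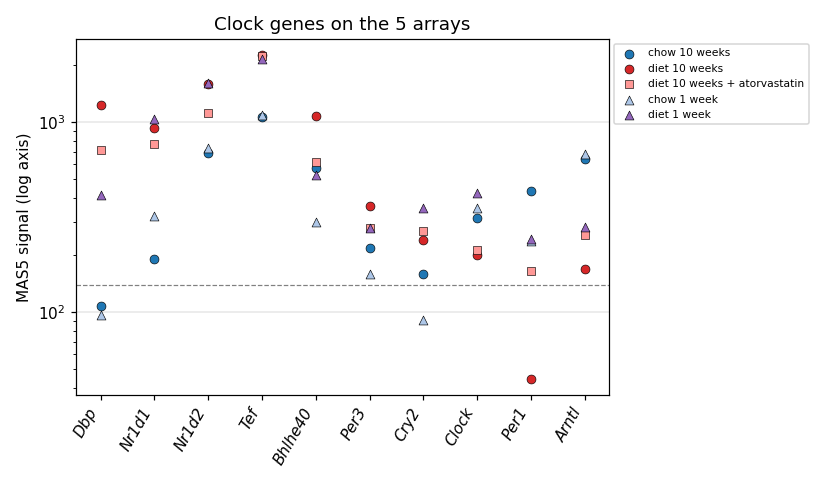
MAS5 signals of 10 clock genes on a log axis, 1 point per array, with the floor as a dashed line. The 3 diet arrays lie above both chow arrays for Dbp, Nr1d1, Nr1d2 and Tef and below them for Arntl.

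Some genes of the fasting and fat-burning programme were lower on the diet. Of 18 measured PPAR alpha targets 4 were at least 2-fold lower and 0 higher, 22.2% beside 6.7% of all genes. The median log2 ratio was -0.48, and all 4 passed against both chow arrays, although the median against the 1-week chow array was 0.0022. Acot1, a cytosolic acyl-CoA thioesterase, read 4621 on chow and 1125 on the diet at 10 weeks, 2649 on the diet with atorvastatin, 3554 on chow at 1 week and 3898 on the diet at 1 week. Pdk4, the kinase that shuts off pyruvate oxidation in fasting, read 1214 on chow and 321 on the diet at 10 weeks, 317 on the diet with atorvastatin, 1012 on chow at 1 week and 504 on the diet at 1 week; both diet arrays of 10 weeks were the lowest. Fgf21, a fasting hormone made by liver, was at 593 on chow against below the floor on the diet (at least 4.27-fold lower), with 175 to 553 on the other 3 arrays. Decr2, a peroxisomal reductase of unsaturated fatty acids, was at 4783 on chow against 1831 on the diet (2.61-fold lower), with 3514 to 3965 on the other 3 arrays.

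Other genes of fasting and oxidation were nearer to equal. Ppara itself gave a log2 ratio of -0.51 and Cyp4a14, a fatty acid hydroxylase, -0.84. Mitochondrial beta-oxidation had 0 of 17 genes higher and 0 lower, with ratios from -0.51 to 0.84. In gluconeogenesis 2 of 15 genes were lower and 0 higher, 13.3% beside 6.7% of all genes, none of them against both chow arrays. G6pc, glucose-6-phosphatase, was at 14508 on chow against 5372 on the diet (2.70-fold lower), with 3609 to 9107 on the other 3 arrays, and Pck1, the entry enzyme of glucose synthesis, at 15999 on chow against 8087 on the diet (1.98-fold lower), short of 2-fold.

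**Figure D4:**
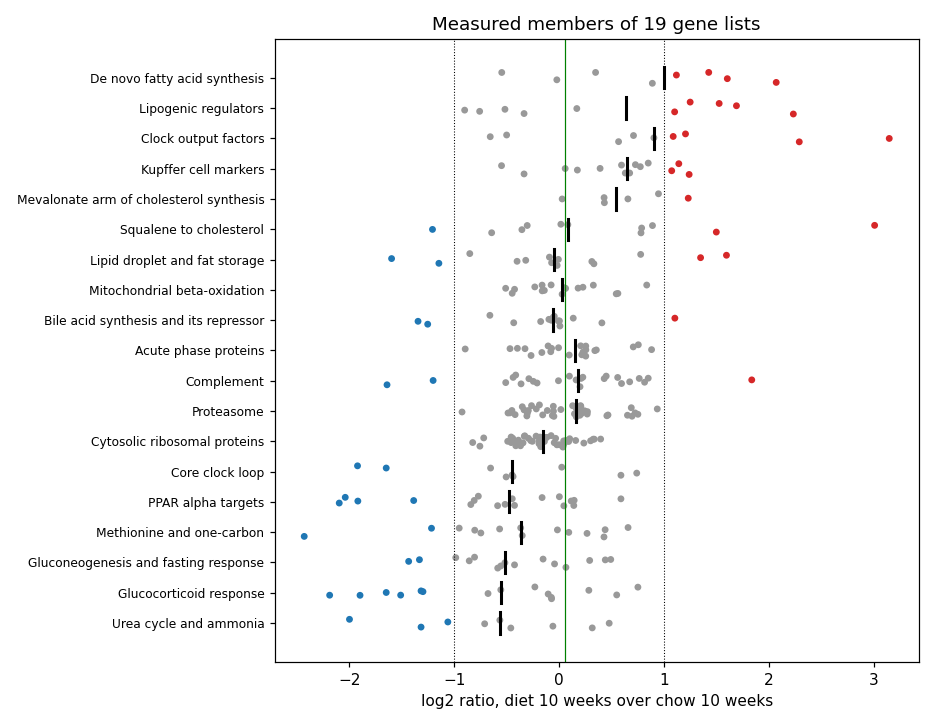
Log2 ratios of diet over chow at 10 weeks for the measured members of 19 gene lists, 1 point per gene, red at or past 2-fold higher and blue at or past 2-fold lower; black bars are list medians and the green line is the median of all genes, 0.053. Medians run from 1.00 for fatty acid synthesis to -0.56 for the urea cycle.

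Several genes of nitrogen and sulphur metabolism were lower on the diet. Of 9 measured genes of the urea cycle and ammonia 3 were at least 2-fold lower and 0 higher, 33.3% beside 6.7% of all genes. The list median was -0.56 against chow at 10 weeks and -0.11 against chow at 1 week. Asl, argininosuccinate lyase, read 11768 on chow and 2947 on the diet at 10 weeks, 7892 on the diet with atorvastatin, 11298 on chow at 1 week and 12798 on the diet at 1 week, so the 10-week diet array was the lowest. Arg1, arginase, was at 36595 on chow against 17553 on the diet (2.08-fold lower), with 18032 to 27232 on the other 3 arrays, and Glul, glutamine synthetase of the cells around the central vein, at 8635 on chow against 3470.2 on the diet (2.49-fold lower), with 4060.3 to 7699 on the other 3 arrays; neither was past 2-fold against the 1-week chow array. Arg1 was short of 2-fold under quantile normalization and cyclic loess, at log2 ratios of -0.61 and -0.84. Cps1 and Otc, the mitochondrial enzymes of the cycle, gave log2 ratios of -0.46 and -0.058.

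Nnmt, which methylates nicotinamide with the methyl group of methionine, read 3813 on chow and 708 on the diet at 10 weeks, 4188 on the diet with atorvastatin, 5637 on chow at 1 week and 3901 on the diet at 1 week. It was 5.39-fold lower on the diet than on chow at 10 weeks, and the other 4 arrays lay within 3813 to 5637. Cth, which makes cysteine from cystathionine, was at 10636 on chow against 4579.7 on the diet (2.32-fold lower), with 7942 to 11486 on the other 3 arrays. Aass, the first enzyme of lysine breakdown, was at 6584 on chow against 2872 on the diet (2.29-fold lower), with 3397 to 6329 on the other 3 arrays, and Oat, ornithine aminotransferase, at 15823 on chow against 6796 on the diet (2.33-fold lower), with 9323 to 12849 on the other 3 arrays. Of 31 amino acid breakdown genes these 2 were the ones past 2-fold, or 6.45%, near the share of all genes.

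Some genes of the glucocorticoid response were lower as well. Of 15 measured genes of the glucocorticoid response 6 were at least 2-fold lower and 0 higher, 40% beside 6.7% of all genes. The median log2 ratio was -0.55, and 3 of the 6 passed against both chow arrays. Under quantile normalization the median was -0.33. Cdkn1a, the p21 inhibitor of the cell cycle, read 1459.9 on chow and 321 on the diet at 10 weeks, 439.9 on the diet with atorvastatin, 1906 on chow at 1 week and 933 on the diet at 1 week, with both 10-week diet arrays lowest. Gadd45b, a stress sensor, was at 804 on chow against 282 on the diet (2.85-fold lower), with 529.7 to 764 on the other 3 arrays, and Sgk1, a kinase induced by glucocorticoids, at 1277 on chow against 519.7 on the diet (2.46-fold lower), with 724 to 1439 on the other 3 arrays. Tsc22d3 and Fkbp5, among the most direct targets of the glucocorticoid receptor, gave log2 ratios of -0.074 and -0.10, within 2-fold.

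The metallothionein genes Mt1 and Mt2, which bind zinc and copper, were at 20193 on chow against 5422 on the diet (3.72-fold lower), and 7763 on chow against 3119.6 on the diet (2.49-fold lower). A second, dimmer probe set of Mt1 gave a log2 ratio of 0.89, and against the 1-week chow array the ratios were -0.97 and -0.23. Egr1, an immediate early factor, read 1596 on chow and 438 on the diet at 10 weeks, 1502 on the diet with atorvastatin, 1959 on chow at 1 week and 1892 on the diet at 1 week. Junb, another early gene, was higher, at 261 on chow against 854 on the diet (3.27-fold higher), with 278 to 617 on the other 3 arrays, so 1 of 17 early genes was higher and 1 lower. Bcl3, an NF-kB family coactivator, was at 408 on chow against below the floor on the diet (at least 2.94-fold lower).

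Bile acid synthesis held differences both ways. Of 15 measured genes 1 was higher and 2 lower, 20% beside 6.7% of all genes. Cyp8b1, the 12-alpha-hydroxylase that makes cholic acid, read 5935 on chow and 2338 on the diet at 10 weeks, 4662 on the diet with atorvastatin, 7199 on chow at 1 week and 7229 on the diet at 1 week. Cyp39a1, an oxysterol hydroxylase, was at 1056 on chow against 443 on the diet (2.38-fold lower), with 893 to 2915 on the other 3 arrays, and the 2 chow arrays themselves differed by a log2 ratio of -1.46. Nr0b2, which encodes SHP, the repressor induced by bile acids, was at 941 on chow against 2022 on the diet (2.15-fold higher), with 992 to 1426 on the other 3 arrays. Cyp7a1, the rate-limiting enzyme of the pathway, was at 2797 on chow and 1772 on the diet, short of 2-fold, and 1096 on the diet at 1 week. Cyp7b1 and Cyp27a1, of the alternative pathway, gave log2 ratios of 0.41 and -0.18.

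Among secreted proteins the structural lipoprotein gene Apob stood out. It read 20895 on chow and 6219 on the diet at 10 weeks, 22047 on the diet with atorvastatin, 22320 on chow at 1 week and 20134 on the diet at 1 week, so that the 10-week diet array was the 1 low value. Apoa4, an apolipoprotein often raised in fatty liver, was at 2203 on chow against 7190.1 on the diet (3.26-fold higher), with a second probe set at a log2 ratio of 2.52, but the 10-week chow array was at least 2-fold below all other 4 and the ratio against chow at 1 week was 0.37. Of 15 measured apolipoprotein genes these 2 were the ones past 2-fold, 13.3% beside 6.7% of all genes. Apoa1, Apoe and Apoc3 gave log2 ratios of -0.47, -0.50 and -0.42. Of 24 measured complement genes 2 were lower and 1 higher, 12.5% beside 6.7% of all genes, with a median log2 ratio of 0.18. C8a and C8b, which encode chains of the pore-forming complex, were at 2022 on chow against 879.8 on the diet (2.30-fold lower), with 1968 to 2682 on the other 3 arrays, and 859.7 on chow against 276 on the diet (3.12-fold lower), with 959.9 to 1057 on the other 3 arrays. C6 and C9, of the same complex, gave log2 ratios of 0.23 and -0.36. Cfp, properdin, a complement protein made by leukocytes, was higher, at 219 on chow against 784 on the diet (3.57-fold higher), with the 10-week chow array lowest of the 5.

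Of 20 measured serpins 3 were higher and 0 lower, 15% beside 6.7% of all genes. All 3 passed against both chow arrays. Serpina12, the adipokine vaspin, read 146 on chow and 1170.1 on the diet at 10 weeks, 902 on the diet with atorvastatin, 170 on chow at 1 week and 189 on the diet at 1 week. Both 10-week diet arrays were above the other 3. The chow signals of Serpina12 and Msmo1 at 10 weeks lay just above the floor, so their folds lean on dim values. Serpinh1, the collagen chaperone HSP47, was at 249.9 on chow against 595 on the diet (2.38-fold higher), with 218 to 342 on the other 3 arrays, with a second probe set at a log2 ratio of 1.26. Serpinb1a, an inhibitor of neutrophil proteases, was below the floor on chow against 279 on the diet (at least 2.01-fold higher), and was short of 2-fold under quantile normalization and cyclic loess. With the floor at the 20th percentile another probe set represents Serpinb1a, with a log2 ratio of -1.49, so its direction depends on the probe set. Acute phase proteins had 0 of 22 genes higher and 0 lower, with ratios from -0.89 to 0.88.

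Detoxification genes differed one by one. Gsta2, an alpha-class glutathione S-transferase, read 3431 on chow and 597 on the diet at 10 weeks, 1042 on the diet with atorvastatin, 1362 on chow at 1 week and 483 on the diet at 1 week; the 10-week chow array was at least 2-fold above all other 4, and the diet array was also below the 1-week chow array by a log2 ratio of -1.19. Gstm3, of the mu class, was at 953 on chow against 2526 on the diet (2.65-fold higher), with 509 to 2121 on the other 3 arrays, with a second probe set at 1.35 beside 1.41, and its close relative Gstm4 at 821 on chow against 1668 on the diet (2.03-fold higher); near-identical members of this family can share probes. Of 44 cytochrome P450 genes 1 was higher and 2 lower, 6.82% against 6.7% of all genes. Cyp2c54 was at 8016 on chow against 2870.1 on the diet (2.79-fold lower), with 5904 to 8179 on the other 3 arrays. Sult3a1, a sulfotransferase with higher levels in females, was at 1469 on chow against 636 on the diet (2.31-fold lower), with 1383 to 2407 on the other 3 arrays.

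Some markers of Kupffer and endothelial cells were higher on the diet than on the 10-week chow array, and 1 of them, Cdh5, also passed against the 1-week chow array. Of 14 measured Kupffer cell markers, which mark the resident macrophages, 3 passed 2-fold upward and 0 downward, 21.4% beside 6.7% of all genes. The list median was 0.65 on the log2 scale. On the 1-week chow array as reference the median was 0.10 and 0 were higher, and between the 2 chow arrays it was -0.55. The summed signal of the list was 16551 on chow at 10 weeks, 23516 on the diet, 32259 with atorvastatin, 21702 on chow at 1 week and 19695 on the diet at 1 week. The 10-week chow array was thus the lowest. The endothelial sum was 8727 on chow and 11688 on the diet at 10 weeks, and 9891 to 12584 on the other 3, again lowest on the 10-week chow array.

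Cd5l, a secreted macrophage protein, was at 1416 on chow against 3344 on the diet (2.36-fold higher), with 2784 to 6110.1 on the other 3 arrays, Clec4f, a lectin of Kupffer cells, at 931 on chow against 2054 on the diet (2.21-fold higher), with 1647 to 2584 on the other 3 arrays, and Adgre1, a surface antigen of macrophages, at 515 on chow against 1085 on the diet (2.11-fold higher), with 538 to 812 on the other 3 arrays. Tyrobp, a myeloid adaptor, was at 448 on chow against 983 on the diet (2.19-fold higher), with 556 to 1600.4 on the other 3 arrays. Of 20 endothelial markers 3 were higher and 0 lower, 15% beside 6.7% of all genes. The list medians were 0.35 against chow at 10 weeks and -0.29 against chow at 1 week. Lyve1, a receptor of sinusoidal endothelium, was below the floor on chow against 477 on the diet (at least 3.44-fold higher), but 988 on chow at 1 week. Cdh5, the endothelial cadherin, was at 255 on chow against 1034 on the diet (4.05-fold higher), with 196 to 406 on the other 3 arrays, while its other probe set gave a log2 ratio of -0.29. Phagocyte genes had 1 of 20 higher, Tyrobp. Lymphocyte and stellate cell markers had 0 of 11 and 0 of 11 higher and none lower. The part of cell make-up in the other ratios was not tested.

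Bile duct and matrix genes gave a few calls that held against both chow arrays. Krt23, a keratin of injured bile ducts and hepatocytes, was below the floor on chow against 553 on the diet (at least 3.98-fold higher), and 413 on the diet at 1 week. Prom1, a surface marker of ductal and progenitor cells, was below the floor on chow against 489 on the diet (at least 3.52-fold higher). They were the 2 past 2-fold of 5 measured duct markers, 40% beside 6.7% of all genes. Of the defining duct markers Krt19 gave a log2 ratio of -0.58, and Krt7, Epcam and Sox9 were not above the floor on either array. Col3a1, a fibrillar collagen, was at 341 on chow against 690.3 on the diet (2.02-fold higher), with 254 to 835 on the other 3 arrays. Of 41 collagens, laminins and integrins 2 were higher and 1 lower, or 7.32%, near the 6.7% of all genes. Only 1 of the 41 passed against both chow arrays. Anxa2 and Lgals1, often raised in tissue remodelling, were at 765 on chow against 1752 on the diet (2.29-fold higher), with 602 to 1243 on the other 3 arrays, and 740.2 on chow against 1485 on the diet (2.01-fold higher), with 359 to 1462 on the other 3 arrays; a second probe set of Lgals1 gave a log2 ratio of 0.26. Col3a1 and Lgals1 were just short of 2-fold under cyclic loess. Ccn2, connective tissue growth factor, was at 719 on chow against 349.8 on the diet (2.06-fold lower), with 467 to 778 on the other 3 arrays.

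In several large ratios the 10-week chow array was the lowest or the highest of all arrays. Neat1, a nuclear noncoding RNA that builds paraspeckles, read 303 on chow and 1406 on the diet at 10 weeks, 704 on the diet with atorvastatin, 1277 on chow at 1 week and 2519.8 on the diet at 1 week, with chow at 10 weeks the low value. Malat1, another nuclear noncoding RNA, encoded beside it, was at 496 on chow against 1748 on the diet (3.53-fold higher), with 894 to 3679 on the other 3 arrays, and its other probe sets gave -0.28 to 1.26 beside 1.82. Slc25a30, a mitochondrial carrier, read 3778 on chow and 1327 on the diet at 10 weeks, 938 on the diet with atorvastatin, 809 on chow at 1 week and 1455 on the diet at 1 week, and Rpgrip1, a ciliary protein, 4626 on chow and 1294 on the diet at 10 weeks, 906 on the diet with atorvastatin, 712 on chow at 1 week and 611 on the diet at 1 week, with chow at 10 weeks the high value in both. Nrip1, a corepressor of nuclear receptors, was at 695 on chow and below the floor on the diet, a log2 ratio of at most -2.32, and its second probe set gave -1.25; the other 3 arrays read 222 to 231. For Neat1, Malat1 and Slc25a30 the 10-week diet array lay within the range of the other 3 arrays. It was above that range for Rpgrip1 and below it for Nrip1.

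**Figure D5:**
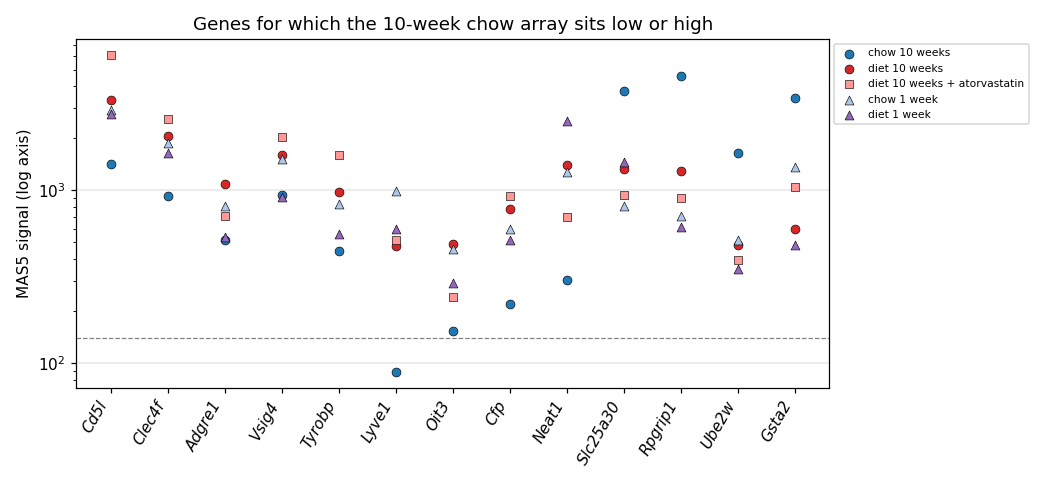
MAS5 signals of 13 genes on a log axis, 1 point per array, with the floor as a dashed line. The 10-week chow array is the lowest or near the lowest point for the macrophage and endothelial genes, Cfp and Neat1, and the highest for Slc25a30, Rpgrip1, Ube2w and Gsta2.

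Other genes named by the rule were single calls. Aqp8, a water and hydrogen peroxide channel of liver, was at 1049.5 on chow against 3957 on the diet (3.77-fold higher), with 439 to 989 on the other 3 arrays. Fen1, a flap endonuclease of DNA replication, was at 144 on chow against 693 on the diet (4.82-fold higher), but of 25 cell cycle genes it was the 1 higher, against 1 lower, Rrm2, at 531 on chow against 193 on the diet (2.75-fold lower). Rsu1, a Ras suppressor, was at 343 on chow against 1394 on the diet (4.06-fold higher), with 546 to 694 on the other 3 arrays. Rgs16, a regulator of G protein signalling, was at 1329 on chow against 3254 on the diet (2.45-fold higher), with its other probe sets at 2.23 to 2.78 beside 1.29, and 2069.6 on chow at 1 week. Tmed5, a cargo receptor of the early secretory path, was at 3254 on chow against 1083 on the diet (3.00-fold lower), with 1481 to 3581 on the other 3 arrays, with a second probe set at -1.54 beside -1.59. Pofut2, an O-fucosyltransferase, was at 718 on chow against 206 on the diet (3.49-fold lower), with 426 to 471 on the other 3 arrays, with a second at -1.07.

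Some genes of the lobule's centre were lower, and inflammation lists held single genes past 2-fold. Of 15 genes of hepatocytes around the central vein 3 were lower and 0 higher, 20% beside 6.7% of all genes, with a median log2 ratio of -0.53 against chow at 10 weeks and -0.013 against chow at 1 week, and 0 passed against both. They were Glul, Oat and Lgr5, a Wnt co-receptor, the last at 629 on chow against 313 on the diet (2.01-fold lower), with 313 to 381 on the other 3 arrays. Lower values were not limited to the centre. Of 11 genes of hepatocytes around the portal vein 1 was past 2-fold lower, Arg1, and 0 higher, with a median of -0.19. Ratios were negative for 10 of these 11, for 11 of the 15 central genes and for 8 of 9 hepatocyte-defining genes. Interferon-stimulated genes had 0 of 21 higher and 1 lower, Rsad2, an antiviral enzyme, at 905 on chow against 434 on the diet (2.08-fold lower), with other probe sets at log2 ratios of 0.44 to 0.46, beside a list median of 0.45. Of 56 chemokines, interleukins and receptors 1 was higher and 2 lower, or 5.36%, near the share of all genes. Il1r1, the interleukin-1 receptor, was at 351 on chow against below the floor on the diet (at least 2.53-fold lower), with 162 to 395 on the other 3 arrays. Hspa1b, an inducible HSP70 chaperone, was at 1412 on chow against 519.5 on the diet (2.72-fold lower), with 565 to 2466 on the other 3 arrays, with other probe sets at log2 ratios of -0.59 to -0.52. Vegfa, a growth factor of vessels that answers hypoxia, was at 292 on chow against 667 on the diet (2.28-fold higher), with 371 to 525 on the other 3 arrays, with a second probe set at -0.34.

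Some transcription factors beyond lipid and clock control were past 2-fold. Of 19 liver factors 1 was higher and 2 lower, all of the NFI family. This was 15.8% beside 6.7% of all genes, with a median log2 ratio of -0.29. Nfib was at 183 on chow against 409 on the diet (2.23-fold higher), with 242 to 790 on the other 3 arrays, with its other probe sets at -0.34 to -0.13, and Nfia at 363 on chow against below the floor on the diet (at least 2.61-fold lower), with 145 to 602 on the other 3 arrays, with others at -0.33 to -0.095. Of 29 nuclear receptors and coregulators 1 was higher, Nr0b2, and 2 lower, Nrip1 and Nr2f2, an orphan receptor of vessels and stroma, at 546 on chow against 272 on the diet (2.00-fold lower), with 387 to 647 on the other 3 arrays, with other probe sets at -0.094 to 0.12. Past 2-fold were 10.3% of the 29, with a median log2 ratio of -0.30. Hnf4a, the master factor of hepatocytes, gave a log2 ratio of -0.30. Rdh16, a retinol dehydrogenase, was the 1 of 12 vitamin A genes past 2-fold, at 1059 on chow against 2439.5 on the diet (2.30-fold higher), with 867 to 1249.9 on the other 3 arrays.

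Gene groups of basic machinery held few or no genes past 2-fold. Cytosolic ribosomal proteins and the proteasome had 0 of 45 and 0 of 45 genes past 2-fold in either direction, with medians of -0.16 and 0.16. The citric acid cycle, insulin and mTOR signalling, glycogen, phospholipid synthesis and the antioxidant genes of NRF2 had none of 20, 22, 9, 12 and 15 past 2-fold. Among splicing factors 5 of 74 were lower and 0 higher, 6.76%, near the share of all genes; for Srsf3, the other 4 probe sets gave log2 ratios of -0.42 to 0.32 beside -1.24.

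The remaining genes of the rule add a few single differences. Gimap3, a lymphocyte GTPase, was at 176 on chow against 583 on the diet (3.31-fold higher), with below the floor to 182 on the other 3 arrays. Sfrp1, a secreted Wnt antagonist, was below the floor on chow against 913 on the diet (at least 6.57-fold higher), with 276 to 511 on the other 3 arrays, but a second probe set gave a log2 ratio of 0.35. Asb16, an ankyrin repeat protein, was below the floor on chow against 547 on the diet (at least 3.94-fold higher), with 228 to 329.6 on the other 3 arrays. Wdtc1, a repressor of fat storage, was at 807 on chow against 170 on the diet (4.75-fold lower), with below the floor to 556 on the other 3 arrays, and Bpnt2, a Golgi phosphatase, at 1005 on chow against 290.3 on the diet (3.46-fold lower), with 596 to 1068 on the other 3 arrays; other probe sets of Bpnt2 gave log2 ratios of -0.24 to -0.19. Atg2a, which feeds lipid to the growing autophagosome, was at 595 on chow against below the floor on the diet (at least 4.28-fold lower), with 614 to 800.5 on the other 3 arrays. The 10-week diet array was the low value for Bpnt2 and Atg2a, while for Wdtc1 the atorvastatin array was lower still.

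Nfic, a transcription factor of the NFI family, was at 1007 on chow against below the floor on the diet (at least 7.25-fold lower), with 489 to 1340 on the other 3 arrays, and Rrs1, a ribosome assembly factor, at 712 on chow against below the floor on the diet (at least 5.13-fold lower), with below the floor to 396 on the other 3 arrays. Tubb2a, a tubulin, was at 2798 on chow against 1218 on the diet (2.30-fold lower), with 1154 to 1598 on the other 3 arrays, Cpeb4, which controls mRNA tails, at 1793 on chow against 709 on the diet (2.53-fold lower), with 703 to 1481 on the other 3 arrays, Tox4, a chromatin protein, at 372 on chow against below the floor on the diet (at least 2.68-fold lower), with 265 to 498 on the other 3 arrays, and Osbpl11, an oxysterol-binding protein relative, at 901 on chow against 442 on the diet (2.04-fold lower), with 489 to 748 on the other 3 arrays. Of genes with the 10-week chow array apart, Ccnt1, a cyclin of transcription elongation, was below the floor on chow against 469 on the diet (at least 3.37-fold higher), with 320 to 452 on the other 3 arrays, Rap1gds1, a chaperone of small GTPases, at 172 on chow against 551 on the diet (3.20-fold higher), with 373 to 417 on the other 3 arrays, Plk3, a stress kinase, at 493 on chow against below the floor on the diet (at least 3.55-fold lower), and was below the floor on the other 3 arrays, Rcor1, a corepressor, at 907 on chow against 257 on the diet (3.53-fold lower), with 413 to 453 on the other 3 arrays, and Ube2w, a ubiquitin-conjugating enzyme, at 1647 on chow against 479.9 on the diet (3.43-fold lower), with 352 to 513 on the other 3 arrays. Other probe sets gave log2 ratios of -0.90 to -0.49 for Rcor1 and 0.19 for Ube2w. Among 193 solute carriers 8 were higher and 5 lower, 6.74%.

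The share of genes past 2-fold differed with brightness. Signals below the floor were set to it before the mean was taken, which limits the folds of the dimmest genes. Of genes in the next-to-dimmest quartile of mean signal 10.6% were past 2-fold, against 5.58% in the dimmest, 5.36% in the next-to-brightest and 5.23% in the brightest. One side lay below the floor for 109 of the higher and 83 of the lower genes. Where a gene had several probe sets, they were separate measures on the same 2 arrays. Of the higher genes 98 and of the lower genes 113 had at least 2 measured probe sets, and all passed 2-fold the same way for 13 and 7. The former were Apoa4, Dbp, Elovl6, Fabp5, Gstm3, Me1, Mknk2, Pklr, Rgs16, Rnf19b, Serpinh1, Stard4 and Thrsp, and the latter Cpeb4, Nrip1, Osbpl11, Pofut2, Tmed5, Tox4 and Tubb2a. For several genes described above a second probe set stayed within 2-fold in the same direction: Nr1d2 gave 0.76, Glul -0.53 and Lyve1 0.53, while Gadd45b gave -2.42 to -0.46, Slc25a30 -1.56 to -0.34 and Rrm2 -0.85 to -0.44. Mknk2 and Rnf19b were named to complete the count, after their values were seen.

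Pairs of arrays that share none with the comparison were read for the same genes. For the diet with atorvastatin over chow at 1 week, 34 of 318 higher genes (10.7%) were also past 2-fold higher, against 2.92% of all genes, and 25 of 272 lower genes (9.19%) were lower, against 1.87%. In all 4.8% of genes were past 2-fold in that pair. In the opposite direction 12 of the higher genes (3.77%) were past 2-fold lower, against 1.87% of all genes. Of the lower genes 14 (5.15%) were past 2-fold higher, against 2.92%. Msmo1 was at a log2 ratio of 3.57 there, Serpina12 at 2.41, Stard4 at 1.42, Fdft1 at 1.55, Cdkn1a at -2.12, Pdk4 at -1.68 and Arntl at -1.42, while Fasn gave 0.58, Acly 0.066, Elovl6 -0.46, Nnmt -0.43, Asl -0.52 and Apob -0.018.

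For the 1-week diet over chow at 1 week, 14 of 314 higher genes (4.46%) were also higher, against 1.06% of all genes, and 7 of 271 lower genes (2.58%) were lower, against 1.25%. In the opposite direction 10 of the higher genes (3.18%) were past 2-fold lower, against 1.25% of all genes. Of the lower genes 9 (3.32%) were past 2-fold higher, against 1.06%. Besides Dbp, Nr1d1 and Nr1d2, the genes Plin3, Krt23 and Junb were past 2-fold higher at both times, at 1-week log2 ratios of 1.16, 1.57 and 1.15, and Gsta2, Cdkn1a and Pdk4 lower, at -1.03 for Cdkn1a and -1.01 for Pdk4. Fasn, Thrsp and Msmo1 gave -0.15, -0.21 and -0.56 at 1 week.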

How the data were processed

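The deposited values are linear intensities, 1 for each probe set of each array, made with MAS5 per the submitters' processing notes. The labels' protocols state pooled livers, Trizol extraction and biotin-labelled cRNA. Arrays were brought to 1 shared 2% trimmed mean here, and signals under the 40th percentile of all signals outside the controls (138.9) were set to it before log2. Of 22690 probe sets, including 64 controls, 20380 outside the controls had 1 gene symbol in the platform annotation and were used; 691 had several, and 1606, controls included, are not listed and unnamed here. A gene with several is represented by the probe set with the highest mean log2 signal over the 5 arrays. The gene table of GRCm38.p6 was used for names and RefSeq promoter windows of that build for motifs.

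With 1 array a side no test was run and no p-value made; counts past 2-fold were read beside the 2 chow arrays, whose log2 ratios had an SD of 0.48 over genes. The number of arrays limits the precision. Members and 84 gene lists were chosen with earlier results of these data known; lists held 2055 genes, of which 1901 had a probe set and 1637 were measured. Named genes are, in each direction, the 12 largest past 2-fold against each chow array with both signals above the floor, the 8 leading genes whose probe sets all passed, the 6 leading genes with the 10-week chow array apart, up to 4 bounds, the leading members of each list and its first 5, and up to 6 genes opposite at 1 week; only part of them is described. Clone names were passed over. Spearman correlations between arrays lay within 0.911 to 0.946. The ratios were recomputed with quantile normalization, with cyclic loess, without rescaling, with the floor at percentile 20 or 60, with a pseudocount, with the mean of all probe sets, without x and s probe sets, with rules of 1.5-fold and 3-fold, with other chow references and with both signals above the floor. The ratio and call steps were tested on simulated data. Tools were Python 3.11.15, numpy 2.4.6, pandas 2.3.3, scipy 1.17.1, matplotlib 3.10.9, R 4.3.3 and limma 3.58.1.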

Additional observations from a re-analysis of the deposited data

Results flagged for a closer look

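Some genes past 2-fold at 10 weeks were past 2-fold in the opposite direction between the diet and chow arrays of 1 week. The difference between the times was not tested, since each group had 1 array. Dyrk1b, a kinase of cell quiescence, gave a log2 ratio of 1.74 at 10 weeks and -1.44 at 1 week, with signals of 163 on chow and 544 on the diet at 10 weeks, 703 on the diet with atorvastatin, 748 on chow at 1 week and 275 on the diet at 1 week. The 10-week chow array was the lowest of the 5, and the 10-week diet array was not above the 1-week chow array. Ugcg, glucosylceramide synthase, gave 1.73 and -1.14, both as bounds, and Add3, a cytoskeletal adducin, 1.63 and -1.19. Gstm3 gave 1.41 and -1.17, and Me1 1.12 and -1.04; both were also past 2-fold against both chow arrays at 10 weeks.

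Nop2, a nucleolar RNA methyltransferase, gave -1.46 at 10 weeks and 1.03 at 1 week, both as bounds. Helz2, a helicase coactivator of PPAR alpha, gave -1.41 and 1.05. Samhd1, a nucleotide hydrolase, gave -1.39 and 1.57, and its other probe sets gave -0.36 to 0.59 at 10 weeks. None of these 3 was past 2-fold against the 1-week chow array where that ratio could be given.
Of 1555 probe sets with no gene listed, controls aside, 830 were measured and 62 (7.47%) were past 2-fold between diet and chow at 10 weeks, against 50 of 789 (6.34%) between the chow arrays. They entered no comparison above.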

How the results depend on the processing

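The counts depend on the fold rule and on the treatment of dim signals. With the floor at the 20th percentile 892 genes were higher and 744 lower, and 317 and 310 against both chow arrays; at the 60th the counts were 129, 144, 49 and 53. A pseudocount in place of the floor gave 213, 165, 52 and 59. A 1.5-fold rule gave 1280, 1014, 613 and 426, and a 3-fold rule 48, 42, 15 and 18. Against the mean of both chow arrays 168 genes were lower and 236 higher. Quantile normalization gave 296 higher and 311 lower, and cyclic loess 288 and 299.

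Of the genes named here as past 2-fold, 124 of 127 stayed past it under quantile normalization and 123 under cyclic loess. With the mean of all probe sets 108 stayed, and against the 1-week chow array 77 of 125. Some genes were named because they passed against each chow array or on all probe sets. The counts of 108 and 77 were therefore partly set by that choice. Of all genes past 2-fold higher on the diet, 112 of 336 (33.3%) also passed against the 1-week chow array. Of those lower, 95 of 284 (33.5%) did. Against the 1-week chow array the log2 ratio turned for Cyp51 to 0.30, Lyve1 to -1.05 and Rpgrip1 to 0.86. It also turned for Slc25a30 to 0.72, Dyrk1b to -0.46 and Samhd1 to 0.42. Mt1 turned to 0.89 without x and s probe sets, where another probe set represents it. Serpinb1a turned to -1.49 at the lower floor, where another probe set represents it as well. Calls that ended were those of Arg1, Rnf19b and Serpinb1a under quantile normalization, at log2 ratios of -0.61, 0.99 and 0.93, and of Arg1, Col3a1, Lgals1 and Serpinb1a under cyclic loess, at -0.84, 0.97, 0.98 and 0.91. The median of the glucocorticoid response, -0.55 as reported, was -0.33 under quantile normalization, -0.38 under cyclic loess and -0.33 without x and s probe sets. The median of hepatocyte-defining genes was -0.36 in the main setting and 0 under quantile normalization. With the 1-week chow array as reference it was 0.37, and against the mean of both chow arrays 0.027, so its sign depends on the reference array. No paired analysis was possible because each group had 1 array and the labels give no replicate numbers. Dim signals limit the folds of genes near the floor.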
